A study of Homo sapiens with 4 samples.

Results

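Giant introns were defined by length alone: introns of more than 50000 bp in genes with at least 2 listed introns. This gave 1993 introns of 1303 genes, out of 142206 listed introns with both read counts in 15902 genes, or 1.4% of the introns. They were followed in polyA-selected cytoplasmic RNA of SUM159, an established mesenchymal-type line of triple-negative breast cancer. Cells were exposed for 12 hours to H3B-8800, a small molecule that binds the SF3b complex of the spliceosome, or to its vehicle DMSO, with 2 libraries of each. Dose, passage and clone were not given in the sources used here. The labels call the libraries biological duplicates. Where 4 values of an intron are given below, the pair before the word against is from the treated libraries, replicates 1 and 2, and the pair after it from the DMSO libraries.

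Splicing removes introns from precursor RNA. The spliceosome recognises the start of an intron, the branch point and the end of the intron, and SF3b, a part of the U2 particle, holds the branch point. Very long introns take long to transcribe, and many hold other genes, pseudogenes and cryptic exons. Spliced messenger RNA is normally exported to the cytoplasm, while RNA that still holds an intron is mostly kept in the nucleus or degraded. An intronic read, as the term is used here, lies inside the intron, and a spliced read spans it. Their quotient gives the unspliced signal relative to joined exons at the same intron, although reads from other RNA inside a giant intron also count as intronic.

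The exon joins across the giant introns whose reads changed most are shown first, because a spliced read that uses the annotated splice sites crosses such a join. Each is the last 20 bases of the exon before the intron and the first 20 of the exon after it, from GENCODE 29 transcripts on GRCh38, in coding sequence. Capitals mark the last 3 bases of the upstream exon and the first base of the downstream exon, the exonic part of the splice sites.
ZSWIM6 intron 1: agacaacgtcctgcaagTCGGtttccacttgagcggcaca
VAV2 intron 2: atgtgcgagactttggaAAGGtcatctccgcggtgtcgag
EYA2 intron 5: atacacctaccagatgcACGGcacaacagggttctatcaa
POLA1 intron 26: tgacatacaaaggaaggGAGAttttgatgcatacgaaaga
GNAQ intron 1: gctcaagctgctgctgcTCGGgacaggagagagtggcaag
CCBE1 intron 2: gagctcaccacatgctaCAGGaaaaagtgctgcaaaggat
COL4A6 intron 2: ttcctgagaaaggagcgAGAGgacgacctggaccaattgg
GAREM intron 1: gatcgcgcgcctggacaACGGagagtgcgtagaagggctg
METAP1D intron 1: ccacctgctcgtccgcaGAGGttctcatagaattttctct
PCCA intron 17: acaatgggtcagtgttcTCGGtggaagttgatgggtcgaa
NDUFAF2 intron 1: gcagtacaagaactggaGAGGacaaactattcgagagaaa
The upper 4 belong to introns whose intronic-to-spliced ratio rose, the next 3 to introns whose intronic reads fell, GAREM, METAP1D and PCCA to introns whose spliced reads changed against the rest of the gene, and NDUFAF2 to the giant intron with the most spliced reads. Whether the counted reads used these exact joins was not tested. Over all 1988 giant introns matched to GENCODE 29, the upstream exon ended in AG in 57.6% and in G in 83.4%, against 55.6% and 80.5% over 138456 other introns. The downstream exon began with G in 47.8% and 49.4%. These are descriptions of the letters, and the exonic ends of giant introns were close to those of other introns.

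The giant introns had a median length of 77197 bp, against 1459 bp over all listed introns, and the longest was FAM155A intron 1 with 654926 bp. Of the 1993, 1371 were up to 100000 bp long, 506 between 100000 and 200000 bp and 116 longer. They made up 28.1% of all listed intron bases. Intron numbers and positions here count only the listed introns of a transcript, in its direction, and may differ from those of the whole gene. By that count 777 giant introns, or 39.0%, were first, against 9.76% of the other introns of genes with at least 2 listed introns. Another 1095 were internal and 121 were last. CACNA2D3, a calcium channel subunit, and PARD3B, a cell polarity scaffold, had 8 giant introns each, the most of any gene. An annotated exon of another transcript or gene lay inside 75.7% of giant introns and 31.5% of other introns, and 914 giant introns held a whole annotated gene, among them 91 with a miRNA gene and 33 with a coding gene.

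Library totals recovered from the deposited values were 58000000 and 62000000 reads for the treated libraries, with 64000000 for each DMSO library. Of 9 markers of the mesenchymal-type line, 6 had at least 10 CPM of spliced reads in every library. The sums of the 3 listed leukocyte markers and the 3 endothelial markers lay between 0.172 and 5.0 on that scale. Of the 7 luminal epithelial markers listed, KRT18 had 285 to 446 CPM and no other reached 10 in every library, the list summed to between 289 and 448, and ESR1 was at 0 in every library. Many giant introns were silent: 482 had no intronic read in any library, 692 no spliced read and 392 neither. A mean of at least 10 intronic reads was reached by 491 giant introns of 421 genes, a mean of at least 10 spliced reads by 587, and both by 293. Of the 491, 39 had a mean under 10 in DMSO and 73 with H3B-8800, so these passed only through the group in which they were high.

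Summed over the whole class, intronic reads of giant introns were nearly equal in both groups, while those of shorter introns in the same genes were higher with H3B-8800. The giant introns had 52009 and 56122 intronic reads against 55081 and 57355. As RPM per Mb of intron, that is reads scaled to equal library totals and to intron length, treated libraries had 4.63 ± 0.031 and DMSO libraries 4.52 ± 0.13 (SD, n = 2). Spliced reads were 43847 and 48429 against 50916 and 51637. The quotient was 119 and 116 intronic per 100 spliced reads against 108 and 111, a ratio of 1.07. The groups did not overlap in that quotient, but with 2 libraries against 2 the exact permutation test, two-sided, cannot go below p = 0.33, the value it gave.

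The 15813 shorter introns of the same genes had 19.3 ± 0.014 intronic reads per 100 spliced reads with DMSO and 33.2 ± 0.51 with H3B-8800 (SD, n = 2), a ratio of 1.72. Among introns with no annotated exon inside on either strand, where reads of other transcripts should be fewest, the 484 giant introns had 50.0 ± 1.5 with DMSO and 58.2 ± 0.96 with H3B-8800, a ratio of 1.16. Their density was 1.40 ± 0.06 RPM per Mb of intron with DMSO and 1.39 ± 0.04 with H3B-8800, and the groups overlapped. The matching shorter introns of the same genes had 4.56 intronic reads per 100 spliced reads with DMSO and 10.5 with H3B-8800, a ratio of 2.31. Giant introns supplied a smaller part of all intronic reads after treatment, 5.02% and 4.98% against 8.75% and 9.12%. Their part of all spliced reads was 0.378% and 0.386% against 0.358% and 0.364%.

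**Figure D1:**
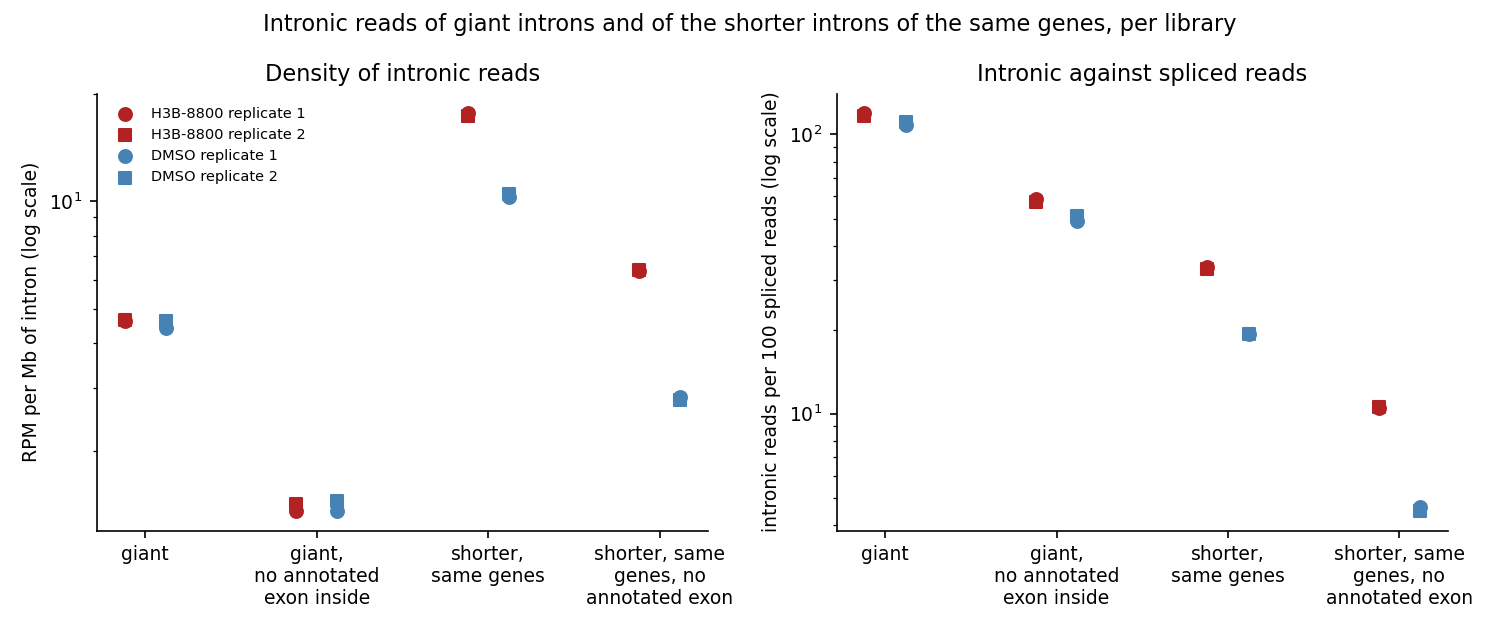
Intronic reads as RPM per Mb of intron (left) and per 100 spliced reads (right), both on log scales, with 1 point per library. Giant introns lie at nearly the same height in both groups, while the shorter introns of the same genes lie higher with H3B-8800, at 33.2 against 19.3 per 100 spliced reads.

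A few giant introns carried much of the class signal. PLEKHA7 intron 3, SLC35F1 intron 1 and GAREM intron 1 together held 48.1% of all intronic reads of giant introns, and the 10 with the most reads held 55.7%. These 10 were chosen after their values were seen. PLEKHA7, an adherens junction protein, had 11825 and 13392 intronic reads against 12760 and 12592 in intron 3. SLC35F1, of the SLC35 family of membrane proteins, had 7046 and 7676 against 7844 and 7452 in intron 1, with at most 24 spliced reads in any library. Neither differed beyond the spread, with log2 changes of 0.08 (SE 0.05, edgeR adjusted p = 0.175) and 0.04 (SE 0.05, edgeR adjusted p = 0.584).

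GAREM intron 1, of an adaptor in growth factor signalling now named GAREM1, had 7483 and 7181 intronic reads against 3858 and 7084, and DMSO replicate 1 lay below the other libraries. Of these 10 introns, 7 contain a whole annotated processed pseudogene, a copy of a messenger RNA without introns, on their own strand, among them HNRNPA1P7 in GAREM intron 1. Reads of such a copy, its parent messenger RNA and the intron around it may not be told apart by the counting. Over the 369 giant introns that hold a whole processed pseudogene on either strand, the quotient per 100 spliced reads was 403 ± 1.6 after treatment and 350 ± 18 in DMSO (SD, n = 2). Over the 1624 without it they were 45.6 ± 1.3 against 50.1 ± 0.95, a ratio of 0.911. Without the 10 introns with the most intronic reads, the log2 ratio of the class was -0.08, against 0.10 with them, so the direction of the class sum rested on these introns.

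Tested intron by intron, giant introns moved in both directions. With library totals as scale, 69 of the 491 tested were higher with H3B-8800 and 95 lower (edgeR, quasi-likelihood, threshold of 0.05 after Benjamini-Hochberg adjustment), or 14.1% and 19.3%. Over all 12013 introns tested, 48.2% were higher and 5.74% lower. The median log2 change was -0.15 for giant introns and 1.13 over all introns. The shorter introns of the same genes had 420 higher and 58 lower of 927, with a median of 1.01. Scaled on the intronic reads themselves by TMM, which moved the median over all introns from 1.13 to 0.09, 8 giant introns were higher and 249 lower. With the totals of spliced reads as scale it was 90 higher and 78 lower, so which direction was more frequent depended on the scale. Calls needed both treated libraries: with either treated library left out, introns of every length failed the threshold, and 127 or 128 giant introns had an unadjusted edgeR p under 0.05.

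The change declined with length across the whole range. The median log2 change of intronic reads was 1.98 for introns up to 150 bp, 1.45 up to 1000 bp, 1.33 up to 10000 bp and 0.53 up to 50000 bp. Within the giant introns it was -0.04 up to 100000 bp, -0.32 up to 200000 bp and -0.40 above. Of the 325 tested giant introns up to 100000 bp, 55 were higher and 52 lower, whereas of the 166 longer ones 14 were higher and 43 lower. The difference between these size classes was not tested. The filter on reads selects more densely covered introns among short ones, and giant introns are tested at a low density. Among tested giant introns split evenly into a low, a middle and a high class by mean intronic reads per kb, the median log2 change was -0.33, -0.20 and 0.09 from the lowest to the highest. Giant and short introns were not matched for density, and the part of density in the decline was not tested.

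**Figure D2:**
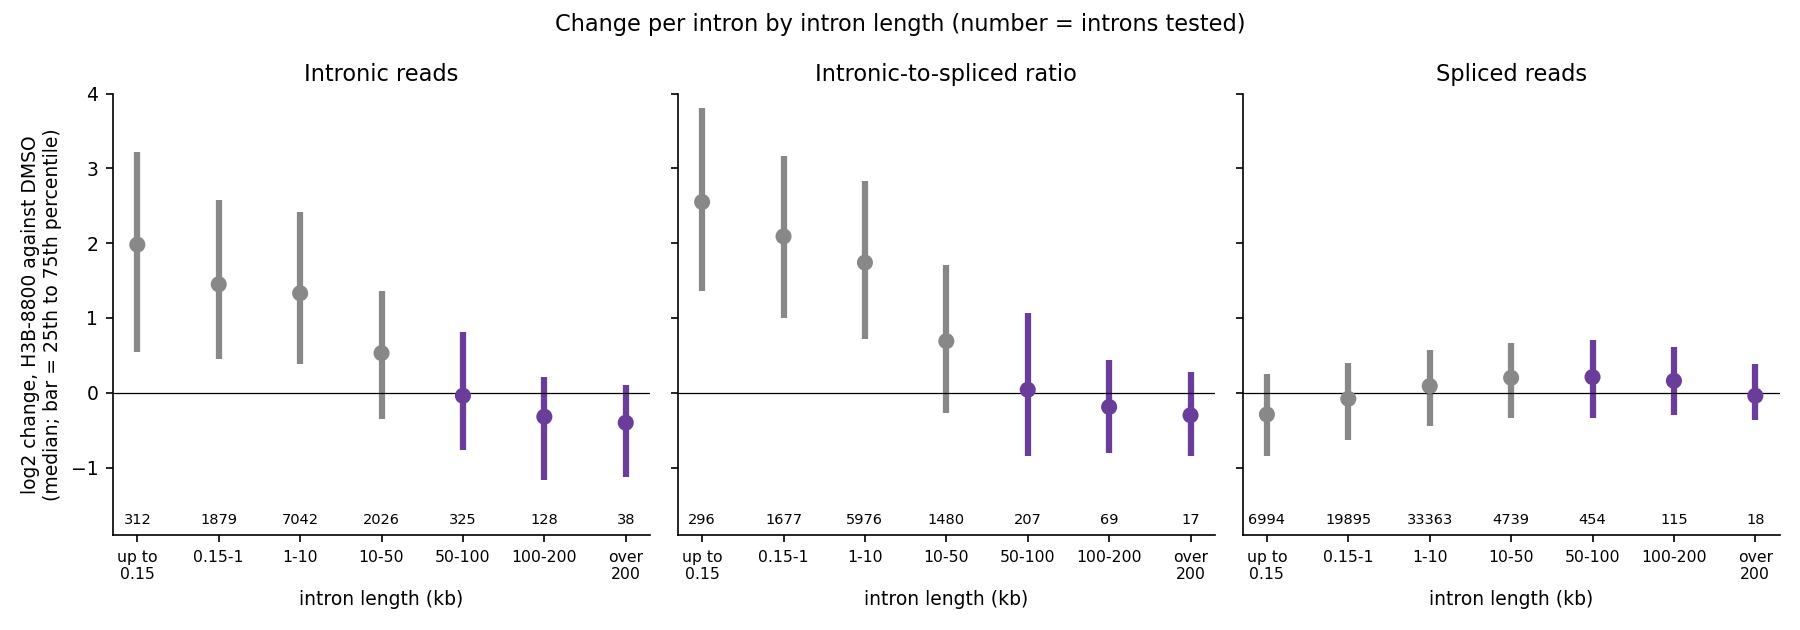
Log2 change with H3B-8800 against DMSO by intron length in kb, for intronic reads, the intronic-to-spliced ratio and spliced reads; points are medians over introns, bars the range from the 25th to the 75th percentile and numbers the introns tested. Medians of the 2 left panels fall from above 1.9 for the shortest introns to near or below 0 for giant introns, shown in purple, and spliced reads show no such fall.

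ZSWIM6 intron 1 (hg38 chr5:61332949-61472680, plus strand), in a gene for a zinc-finger protein, had the clearest rise. It had 809 and 922 intronic reads against 142 and 110, a log2 change of 2.87 (SE 0.14, edgeR adjusted p = 1.03e-07). It contains 3 processed pseudogenes, 2 of them on its own strand. VAV2 intron 2 (chr9:133861433-133939102, minus strand), of a guanine nucleotide exchange factor, had 68 and 80 intronic reads against 12 in both DMSO libraries, a log2 change of 2.70 (SE 0.34, edgeR adjusted p = 0.000104). DOCK1 intron 1, of an exchange factor for Rac, had 30 and 42 against 8 and 4. No annotated gene lies wholly inside the VAV2 or DOCK1 intron. Intron 4 of FAM53B had 25 and 14 against 0 and 2, and TTLL11 intron 1, of a tubulin-modifying enzyme, 28 and 22 against 0 and 6. SRGAP2C intron 2 had 19 and 20 against 2 and 4, but SRGAP2C is a recent copy of SRGAP2, and reads of the near-identical copies could be split between them. In all 6 the groups did not overlap.

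Among the lowest changes were introns without reads after treatment. GNAQ intron 1 (chr9:77922346-78031099, minus strand), of the alpha subunit of the Gq protein, had 0 intronic reads in both H3B-8800 libraries and 24 and 16 with DMSO. PRKCE intron 1 (chr2:45652449-45842999, plus strand), of protein kinase C epsilon, had 0 and 0 against 26 and 14. Both introns passed the filter only through the DMSO libraries, in which they were high. With a floor of 3 reads per library, both were at least 6.24-fold lower (edgeR adjusted p = 0.00149 for GNAQ and 0.00176 for PRKCE). Spliced reads of GNAQ intron 1 were 38 and 52 against 27 and 44, a log2 change of 0.66 (SE 0.29, edgeR adjusted p = 0.068).

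COL4A6 intron 2 (chrX:108221375-108310747, minus strand), in the gene for a collagen chain of basement membranes, had 24 and 28 intronic reads against 237 and 272, a log2 change of -3.19 (SE 0.21, edgeR adjusted p = 8.89e-07). No annotated gene lies wholly inside it. IMMP2L intron 3, which spans 523672 bp of a common fragile site in the gene for a mitochondrial inner membrane peptidase, had 5 and 2 against 71 and 44. It holds the coding gene LRRN3 and processed pseudogenes, all on the opposite strand. DGKB intron 22, of a diacylglycerol kinase, had 0 and 4 against 24 and 28. It holds the processed pseudogene EEF1A1P26 on the opposite strand. BBS9 intron 16, of a subunit of the BBSome in cilia, had 0 and 2 against 12 and 26. The IMMP2L, DGKB and BBS9 introns passed the filter only through the DMSO libraries, in which they were high. All of these had less in every treated library than in any control.

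**Figure D3:**
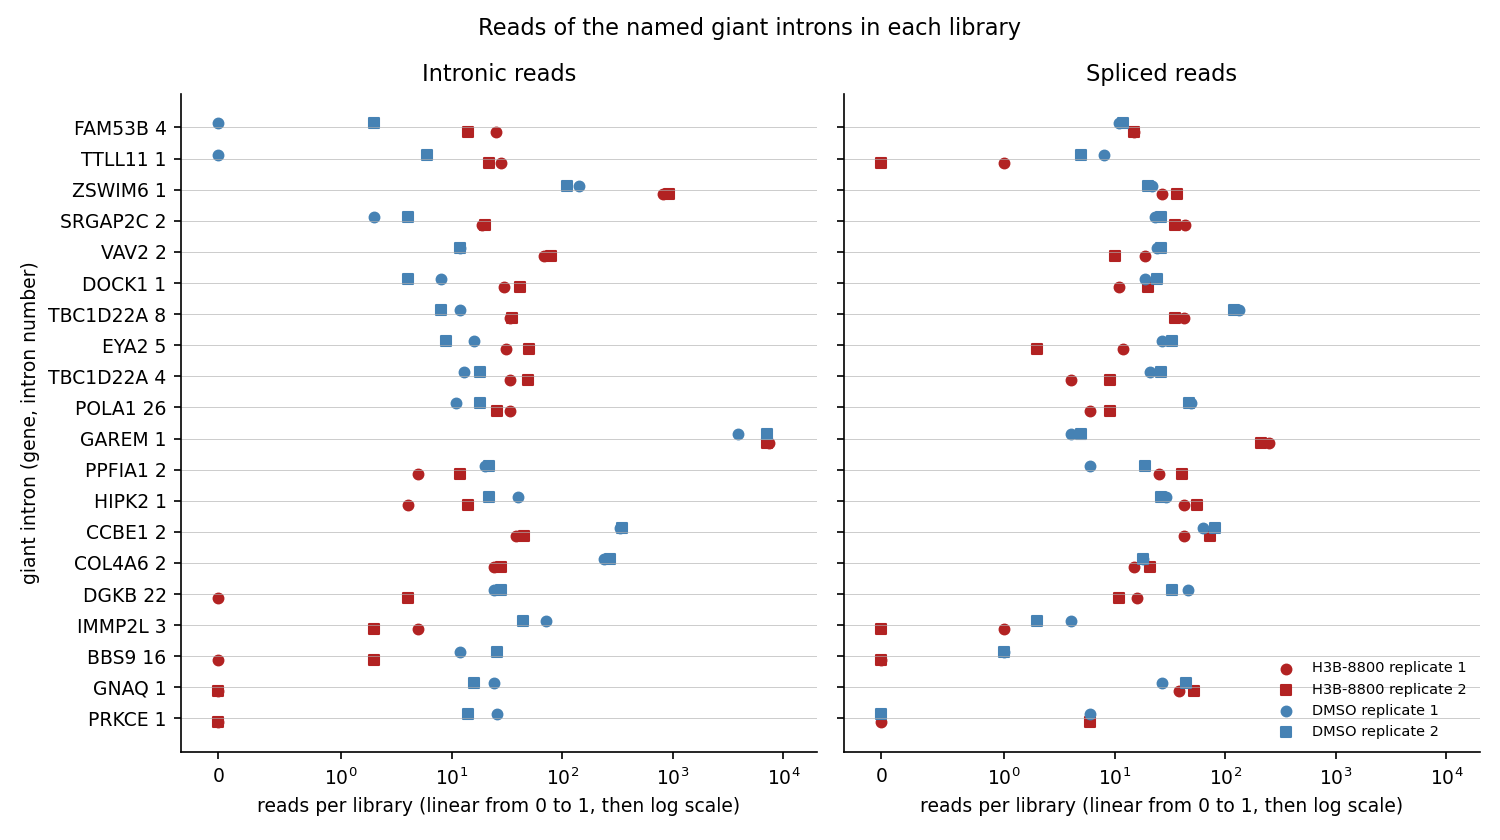
Intronic (left) and spliced (right) reads per library of the giant introns with the largest changes of intronic reads or of the ratio, on an axis that is linear from 0 to 1 and logarithmic above. GNAQ intron 1 and PRKCE intron 1 sit at 0 intronic reads in both H3B-8800 libraries, and ZSWIM6 intron 1 lies at 809 and 922 against 142 and 110.

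Relative to spliced reads at the same intron, 43 of 293 giant introns were higher with H3B-8800 and 36 lower, with a median log2 change of -0.04. Over all 9937 introns tested, 56.5% were higher and 2.88% lower, with a median of 1.62, and in the shorter introns of the same genes 314 of 665 were higher and 29 lower, with a median of 1.29. The medians by length were 2.55, 2.09, 1.74 and 0.69 below the giant introns, and 0.04, -0.19 and -0.30 within them. This quotient needs no scaling between libraries, and the order by length was the same as for the intronic reads. Among the 39 tested giant introns without an annotated exon inside, 7 were higher and 3 lower, with a median of -0.04.

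In several introns the ratio rose with intronic reads higher and spliced reads lower. EYA2 intron 5, of a transcriptional co-activator with phosphatase activity, had 31 and 50 intronic reads against 16 and 9, and 12 and 2 spliced reads against 27 and 33, a log2 change of the ratio of 3.80 (SE 0.88, edgeR adjusted p = 0.00309). POLA1 intron 26 (chrX:24748993-24809897, plus strand), of the catalytic subunit of DNA polymerase alpha, had 34 and 26 intronic reads against 11 and 18 and 6 and 9 spliced reads against 49 and 47, a log2 change of 3.71 (SE 0.67, edgeR adjusted p = 0.00063). POLA1 intron 26 holds the processed pseudogene EEF1B2P3 on the opposite strand. TBC1D22A, a protein of the TBC family that acts on Rab GTPases, had a rise at both its introns 4 and 8. Intron 8 had 34 and 35 intronic reads against 12 and 8, and 42 and 35 spliced reads against 134 and 119, a log2 change of 3.50 (SE 0.50, edgeR adjusted p = 0.000127). VAV2 intron 2 rose by 3.41 (SE 0.62) and FAM53B intron 4 by 3.74 (SE 1.11). Here spliced reads differed less, at 15 and 15 against 11 and 12 for FAM53B. EYA2 intron 5, POLA1 intron 26 and TBC1D22A intron 4 passed the filter for spliced reads only through the DMSO libraries. FAM53B intron 4 passed that for intronic reads only through the treated ones.

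The ratio fell where intronic reads were lost or spliced reads gained. CCBE1 intron 2 (chr18:59480239-59696628, minus strand), of a secreted protein needed for lymphatic vessels, had 38 and 45 intronic reads against 336 and 347, while spliced reads were 42 and 73 against 63 and 81. Its ratio fell by 2.70 on the log2 scale (SE 0.37, edgeR adjusted p = 0.000106). The intron holds antisense genes on the opposite strand. COL4A6 intron 2 had 15 and 21 spliced reads against 18 and 18, and its ratio fell by 3.28 (SE 0.48, edgeR adjusted p = 0.000168). HIPK2 intron 1, of a nuclear protein kinase, had 4 and 14 intronic reads against 40 and 22 and 42 and 56 spliced reads against 29 and 26. PPFIA1 intron 2, of the scaffold liprin-alpha, had 5 and 12 intronic reads against 20 and 22. Its spliced reads were 25 and 41 against 6 and 19. HIPK2 and PPFIA1 passed the filter for intronic reads only through the DMSO libraries.

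Within the same gene, the signed change of giant introns mostly lay below that of the shorter ones. In 159 genes with both kinds tested for the ratio, the giant introns' median change was below that of the shorter introns in 114, with a median difference of -0.98 on the log2 scale. For intronic reads this held in 178 of 253 genes, with a median difference of -0.99. A direct test, added after these values were seen, compared the summed intronic reads of giant and of shorter introns of a gene in 1 model. Of 317 genes, 116 (36.6%) had a lower change in the giant introns and 14 (4.42%) a higher one, with a median log2 difference of -0.95. In each of these comparisons the filter used the mean over all libraries. Some introns or sums therefore passed only through the group in which they were high, and how many did so was not counted. Without a DMSO library the lower calls were 51 (replicate 1) or 46 (replicate 2).

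**Figure D4:**
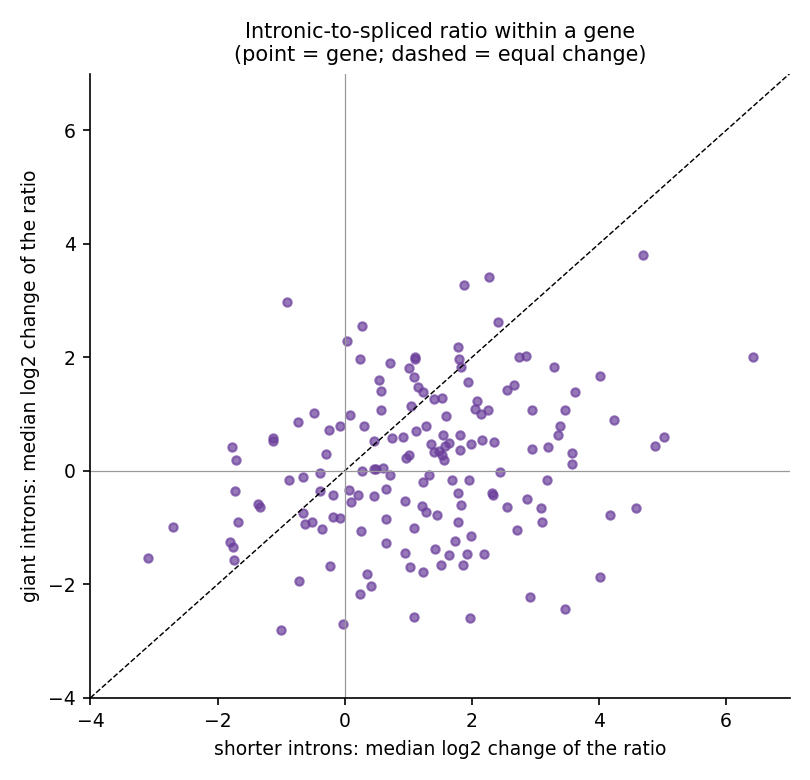
Median log2 change of the intronic-to-spliced ratio with H3B-8800 for giant introns (vertical axis) and shorter introns (horizontal axis) of the same gene, with 1 point per gene and a dashed line of equal change. Of 159 genes 114 lie below the line.

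Some genes, chosen after their values were seen, show the contrast. EGFR, the epidermal growth factor receptor, had 180 and 252 intronic reads in giant introns against 302 and 307. Its shorter introns had 45 and 45 against 4 and 2, a log2 difference of -4.37 (SE 0.56, edgeR adjusted p = 5.69e-08). These shorter introns passed the filter only through the treated libraries. In COL4A6 the giant introns had 117 and 121 against 387 and 432, and the shorter ones 724 and 778 against 226 and 217, a difference of -3.54 (SE 0.33, edgeR adjusted p = 1.99e-11). ZAK, a stress-responsive kinase, had 21 and 10 against 25 and 41 in giant and 2178 and 2044 against 298 and 260 in shorter introns. The reverse was seen in VTI1A, a SNARE protein, with 90 and 70 against 64 and 65 in giant and 54 and 40 against 175 and 201 in shorter introns, a difference of 2.31 (SE 0.43, edgeR adjusted p = 2.36e-05).

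Spliced reads across giant introns were more often higher than lower. With TMM scaling, 136 of 587 were higher with H3B-8800 and 72 lower, against 21.5% higher and 21.7% lower over all 66136 introns tested. The median log2 change was 0.18 against 0.01 over all introns. Shorter introns of the same genes had 1230 higher and 603 lower of 5436, with a median of 0.21. With library totals as scale, which moved the median over all introns to -0.23, 92 giant introns were higher and 119 lower, so the direction of the majority depended on the scale. With either treated library left out no calls were left, and 174 or 157 giant introns had an unadjusted edgeR p under 0.05. By position among the listed introns, first giant introns had 68 higher and 15 lower of 245. Internal ones had 61 and 45 of 301, and last ones 7 and 12 of 41.

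GAREM intron 1 (chr18:32393036-32470307, minus strand) had the largest gain, with 247 and 209 spliced reads against 4 and 5. This was a log2 change of 5.95 (SE 0.28, edgeR adjusted p = 6.14e-12). Whether these reads used the annotated join was not tested. EDIL3 intron 7, of a secreted integrin ligand, had 14 and 26 against 4 and 3. LCORL intron 4, of a transcription factor, had 22 and 21 against 3 and 5. NRP1 intron 2, of neuropilin 1, a co-receptor for semaphorins and VEGF, had 125 and 110 against 33 and 37, and CREB3L2 intron 1, of a membrane-bound transcription factor, 33 and 29 against 7 and 9. Each of these was higher in both treated libraries than in either control.

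The largest loss among introns that passed the filter was at PCCA intron 17 (chr13:100368575-100425632, plus strand), of a subunit of mitochondrial propionyl-CoA carboxylase, with 1 and 1 spliced reads against 19 and 19, a log2 change of -3.78 (SE 0.76, edgeR adjusted p = 0.000383). It passed the filter only through the DMSO libraries, as did 47 of the 587 tested giant introns for spliced reads, while 31 passed only through the treated ones. SPIDR intron 6, of a scaffold in homologous recombination, had 3 and 1 against 19 and 23. UBE3D intron 8, of a ubiquitin ligase, had 2 and 1 against 27 and 11, and CRTC1 intron 1, of a co-activator of CREB, 1 and 5 against 15 and 22. SRBD1 intron 16, of a protein with an S1 RNA-binding domain, had 8 and 14 against 75 and 58. SPIDR, UBE3D and CRTC1 also passed the filter only through the DMSO libraries.

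Few giant introns differed from the rest of their own transcript. When spliced reads of a giant intron were set against those of all other introns of its gene, 4 of 579 were higher with H3B-8800 and 3 lower, or 0.691% and 0.518%, against 0.362% and 0.347% over all 65419 introns tested. The median log2 change was 0.02. These calls rest on edgeR: DESeq2 gave no adjusted p for 4 of the 7 and called none of the others, and with the replicate block the counts were 11 higher and 9 lower. GAREM intron 1 differed most, by 5.74 (SE 0.62, edgeR adjusted p = 0.000394): reads across its other introns were 9 and 14 against 13 and 12. GAREM intron 1 holds the processed pseudogene HNRNPA1P7, and whether its spliced reads used the annotated join was not tested. Its spliced reads, like those of METAP1D intron 1, passed the filter only through the treated libraries. METAP1D intron 1 (chr2:172000010-172061497, plus strand), of a mitochondrial methionine aminopeptidase, had 22 and 22 against 5 and 4, while the other introns had 82 and 71 against 125 and 136, a difference of 3.03 (SE 0.49, edgeR adjusted p = 0.00862).

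ZNF385D, a zinc-finger gene, had both other higher calls, at introns 1 and 2. Intron 2 had 126 and 133 spliced reads against 102 and 86, a difference from the rest of the gene of 1.03 (SE 0.18, edgeR adjusted p = 0.0162). The 3 lower calls were PCCA intron 17, at -3.26 (SE 0.69, edgeR adjusted p = 0.0433), DGKI intron 1 and KCNQ5 intron 1. DGKI, a diacylglycerol kinase, had 13 and 21 spliced reads across intron 1 against 87 and 61, and 112 and 137 against 78 and 96 across its other introns. KCNQ5, a potassium channel, had 15 and 15 against 36 and 36 across intron 1, and 57 and 55 against 32 and 35 elsewhere. In both genes the treated libraries lay below the controls across intron 1 and above them across the other introns.

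Transcript parts before and after an internal giant intron were compared next. Of 378 giant introns, 4 had a higher quotient of downstream to upstream spliced reads with H3B-8800 and 19 a lower one, or 1.06% and 5.03%, against 0.613% and 5.39% over all 67036 introns tested. The median log2 change was -0.06 against -0.08 over all introns. Giant introns were in this respect near the background. The 19 lower calls fell in 15 genes and the 4 higher in 2, and introns of the same gene share most of the reads summed, so they are not independent.

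ZNF385D intron 4 had 88 and 105 downstream spliced reads against 237 and 231, and 401 and 453 against 383 and 344 upstream, a log2 change of -1.51 (SE 0.19, edgeR adjusted p = 9.62e-05). The treated libraries lay below the controls after the intron and above them before it, and the intron itself had 283 and 347 spliced reads against 516 and 581. INADL intron 27, of a polarity scaffold now named PATJ, had 17 and 30 against 89 and 80 downstream and 89 and 121 against 116 and 132 upstream. COL4A6 intron 2 had 168 and 191 against 569 and 605 downstream and 26 and 33 against 31 and 41 upstream. EYA2 intron 5 had 24 and 53 against 128 and 147 downstream, and DOCK2 intron 27 had 2 and 5 against 17 and 29. DOCK2 passed the filter for downstream reads only through the DMSO libraries. For GAREM intron 2 the upstream part is intron 1, with 247 and 209 against 4 and 5, while 6 and 13 against 13 and 8 lay downstream. That upstream part passed the filter only through the treated libraries, and the downstream part only through the DMSO libraries.

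The higher calls were MTHFD2L intron 6 and MBD5 introns 3, 4 and 5. MTHFD2L, a mitochondrial enzyme of folate metabolism, had 17 and 22 spliced reads downstream of intron 6 against 1 and 1. Upstream it had 177 and 209 against 152 and 108, a log2 change of the quotient of 3.55 (SE 0.71, edgeR adjusted p = 0.00525). Its downstream reads passed the filter only through the treated libraries. MBD5, a protein with a methyl-CpG-binding domain, had 52 and 47 downstream of intron 3 against 16 and 16, and 41 and 15 against 39 and 39 upstream. All 3 of its giant introns follow each other, so they repeat the same reads.

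**Figure D5:**
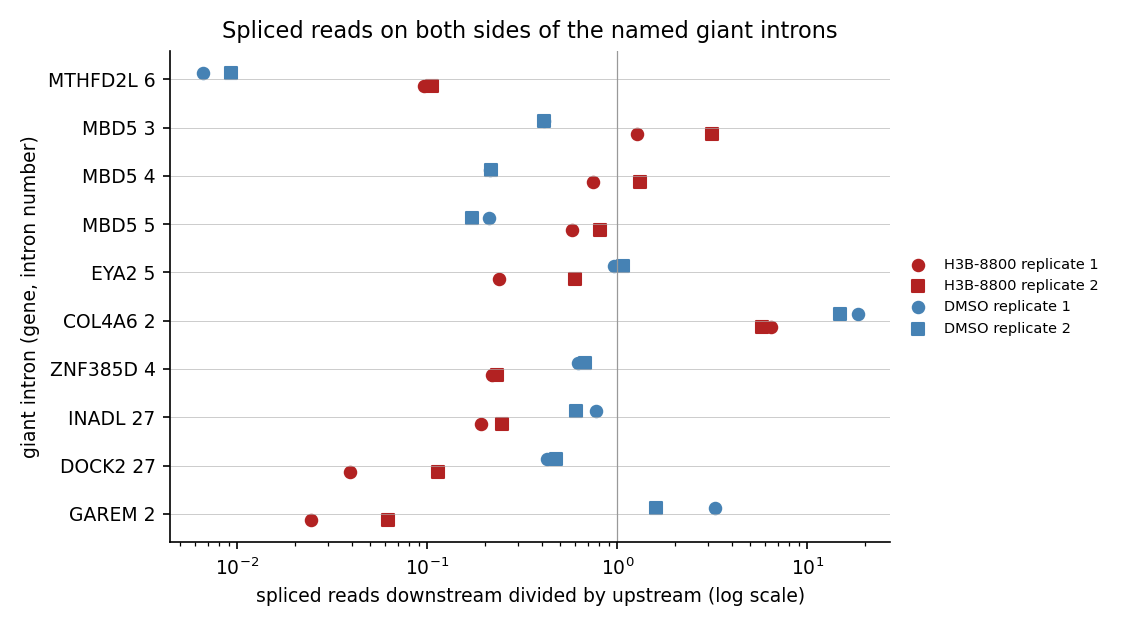
Spliced reads downstream divided by those upstream of each named giant intron, per library, on a log scale, with a line at 1 where both sides are equal; coinciding points hide each other. In GAREM, DOCK2, INADL, ZNF385D, COL4A6 and EYA2 both H3B-8800 libraries lie left of both DMSO libraries, and in MBD5 and MTHFD2L right of them.

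Position among the listed introns went along with small differences among giant introns. For the intronic-to-spliced ratio, the 31 tested last giant introns had 8 higher and 2 lower and a median log2 change of 0.56. The 149 internal ones had 22 and 20 with a median of -0.07, and the 113 first ones 13 and 14 with a median of -0.19. The last giant introns had 46.0 and 42.8 intronic per 100 spliced reads against 37.3 and 36.0. These positions were not tested against each other.

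Genes grouped by function gave few tested members each, and their calls are read against the shares over all introns given above, 48.2% higher and 5.74% lower for intronic reads, 56.5% and 2.88% for the ratio and 21.5% and 21.7% for spliced reads. Among giant introns these shares were 14.1% and 19.3%, 14.7% and 12.3%, and 23.2% and 12.3%. Vesicle tethering and trafficking genes had 43 members, with 4 higher and 1 lower of 16 for intronic reads and 4 higher and 2 lower of 11 for the ratio, of which TBC1D22A supplied 2. Common fragile site genes, whose very long transcription units break under replication stress, had 37 members in 11 genes, and 2 were higher and 4 lower of 13 for intronic reads. MAD1L1 intron 2, of a spindle checkpoint protein in that list, had 108 and 163 intronic reads against 37 and 33, and its ratio rose by 1.81 (SE 0.35, edgeR adjusted p = 0.00092). DPYD intron 2, of an enzyme of pyrimidine breakdown, had 10 and 12 against 36 and 34, with a change of the ratio of -0.42 (SE 0.69, edgeR adjusted p = 0.612).

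Among ubiquitin ligases and their partners, 4 of 6 tested giant introns had more spliced reads and none fewer, and 2 of 5 had a lower ratio, counts too small to set the list apart from other giant introns. UBE2E2 intron 3 and UBE2E3 intron 2, of 2 related ubiquitin-conjugating enzymes, were those 2. UBE2E2 had 61 and 62 intronic reads against 109 and 117, and its ratio fell by 1.06 (SE 0.34, edgeR adjusted p = 0.017). UBE2E3 had 18 and 16 against 31 and 31 and fell by 1.37 (SE 0.43, edgeR adjusted p = 0.017). Receptors and kinase signalling genes, with 47 members, had 7 higher and 2 lower of 23 for spliced reads, 0 higher and 4 lower of 13 for intronic reads and 0 higher and 1 lower of 9 for the ratio. The lower ratio was that of PPP3CA intron 1, of calcineurin, with 20 and 20 intronic reads against 35 and 26 and 54 and 81 spliced reads against 46 and 33.

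Transcription factors and chromatin regulators, the list with the most members at 57, had 6 higher and 1 lower of 19 for spliced reads and 1 lower ratio of 8. That was NR3C1 intron 1, of the glucocorticoid receptor, with 112 and 104 spliced reads against 75 and 73. Its ratio changed by -1.62 (SE 0.64, edgeR adjusted p = 0.0446), and it passed the filter for intronic reads only through the DMSO libraries. Of RNA-binding and RNA-processing genes, FTO intron 8, of an RNA demethylase, had 22 and 17 intronic reads against 82 and 69. Its ratio fell by 2.01 (SE 0.51, edgeR adjusted p = 0.00533), and the intron holds annotated genes on both strands. MBNL2 intron 2, of a splicing regulator, had 62 and 48 intronic reads against 14 and 12 and also 167 and 166 spliced reads against 77 and 94, so its ratio, at 1.10 (SE 0.45, edgeR adjusted p = 0.0506), did not pass. Cell adhesion and junction genes had 31 members, with 1 higher and 1 lower of 11 for intronic reads and no call for the ratio or spliced reads.

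The giant introns with the most spliced reads did not all change alike. NDUFAF2 intron 1 (chr5:60945383-61073124, plus strand), of an assembly factor of respiratory complex I, spans 127742 bp and had 5140 and 5705 spliced reads against 5381 and 5574, a log2 change of 0.31 with TMM (SE 0.05, edgeR adjusted p = 3.84e-05). Its 241 and 247 intronic reads against 228 and 281 gave a change of the ratio of -0.04 (SE 0.21, edgeR adjusted p = 0.883). EIF3H intron 2, of a subunit of translation initiation factor 3, had 877 and 985 spliced reads against 916 and 916, a log2 change of 0.35 with TMM (SE 0.08, edgeR adjusted p = 0.000864). In both introns the unscaled spliced reads of the groups overlapped. CRADD intron 2, of a death-domain adaptor, had 760 and 856 against 1671 and 1612, a log2 change of -0.70 (SE 0.07, edgeR adjusted p = 1.6e-07), and its intronic reads, 219 and 197 against 629 and 560, fell as well.

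The longest introns with at least 10 spliced reads on average were FRMD4A intron 2 with 471145 bp, SMYD3 intron 4 with 397263 bp and KCNQ5 intron 1 with 381320 bp. FRMD4A, a scaffold protein, had 43 and 60 intronic reads against 80 and 51 and 31 and 40 spliced reads against 51 and 57. SMYD3, a lysine methyltransferase, had 20 and 44 intronic reads against 50 and 51 and 10 and 11 spliced reads against 17 and 17. Neither passed for intronic reads, spliced reads or the ratio. At the length threshold, AMBRA1 intron 7 (50009 bp) and TDRP intron 1 (50052 bp) were just inside, with means under 10 intronic reads in AMBRA1 and 6 and 14 against 10 and 22 in TDRP. GRIK2 intron 3 (49985 bp) and SASH1 intron 2 (49921 bp) were just outside and had no intronic read in any library.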

How the data were processed

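Measured were 4 libraries of cytoplasmic SUM159 RNA after 12 hours of H3B-8800 (2) or DMSO (2), made strand-specific per the labels' protocols. Per the submitters' processing notes HISAT2 2.0.4 and the builds hg38 and mm10 were used, and 99.7% of the giant introns are introns of GENCODE 29 on GRCh38. The sources used here do not say if counting used strand, so overlapping and antisense genes are uncertain. The authors deposited 2 read counts and an RPKM per intron without a header. The first count was taken as intronic reads and its difference from the second as spliced reads, a reading inferred from the values. Library totals were recovered from the deposited RPKM, which was not tested itself. Even numbers made up 76.6% of the non-zero intronic counts of giant introns, so mates of a pair may both have been counted and counts are not of molecules. Intron coordinates are 1-based, symbols are those of the files, and introns are numbered among those listed.

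Counts were tested with edgeR 4.0.16 in R 4.3.3 (quasi-likelihood test, 2 against 2, Benjamini-Hochberg over all introns tested, threshold 0.05), on introns whose mean over the libraries reached 10 for each kind of read used. Intronic reads used library totals as scale and spliced reads TMM. The ratio, the comparison within a gene and the comparison of both sides of an intron were interactions in 1 model with a term per library. SEs were approximated from the F statistic. The alternatives were other scalings, no filter or a mean of 30, DESeq2 1.42.0, a replicate block and leaving out each library. On simulated counts with 4-fold changes, 74.2% were recovered for intronic reads over 12013 introns, 33.3% for the ratio over 9937 and 92.4% for spliced reads over 66136. It was 95.5% for the comparisons within a gene over 65419 and of both sides over 67036, and 75.8% for giant against shorter introns over 317 genes. False calls were at most 1.71%. Each simulation used the same dispersion throughout, and those over introns changed fewer introns than were called in these data.

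The members and gene lists were chosen with earlier results of these data known. Named were, per test, up to 6 introns with the largest and 6 with the smallest log2 change among passing introns without overlap between groups; the 3 with the most spliced reads; the 3 longest with a mean of at least 10 spliced reads; up to 2 per gene list with the smallest adjusted p for the ratio; and the 2 on either side of the length threshold. Others were chosen after their values were seen. For 1 gene list no result is reported here. No genome of the files' build was used here, so intronic splice site letters are not shown.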

Additional observations from a re-analysis of the deposited data

How the results depend on the processing

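Among giant introns the calls for intronic reads were 69 higher and 95 lower with library totals. They were 8 and 249 with TMM, 8 and 246 with DESeq2 size factors and 90 and 78 with totals of spliced reads. Both scalings on intronic reads, by their construction, centre the mostly higher intronic reads of other introns on 0, and under TMM and size factors, respectively, the log2 change was -0.96 and -0.93 for PLEKHA7 intron 3, -1.01 and -0.98 for SLC35F1 intron 1, -0.52 and -0.50 for GAREM intron 1, -0.82 and -0.80 for SBF2 intron 1, -0.81 and -0.78 for MAGI3 intron 1 and -0.36 and -0.33 for LHFPL3 intron 1, all above 0 with library totals. For spliced reads, library totals gave 119 lower. A mean of at least 30 reads left 62 lower for intronic reads, 18 higher and 17 lower for the ratio, 46 lower for spliced reads and 58 genes with a lower change in giant than in shorter introns, with fewer introns tested. Without the filter there were 9 higher and 4 lower for the ratio, 1 lower within the gene, and 3 genes higher and 74 lower for giant against shorter introns; the cause was not tested. DESeq2 gave 39 higher and 51 lower for intronic reads, 19 lower for the ratio, 67 higher and 32 lower for spliced reads, 0 higher and 8 lower for downstream against upstream, and 7 genes higher for giant against shorter introns. Within the gene it gave 0 higher and 0 lower, with 37 unadjusted p values under 0.05 by DESeq2, and for 4 of the 7 called by edgeR it gave no adjusted p; the cause was not tested.

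With 1 library left out, calls ranged from 0 to 76 higher and 0 to 85 lower for intronic reads, 24 to 34 and 20 to 28 for the ratio, 0 to 103 and 0 to 55 for spliced reads, 2 to 5 and 1 to 4 within the gene, 2 to 5 and 11 to 15 downstream against upstream, and 3 to 13 and 46 to 96 genes for giant against shorter introns; the group left with 1 library is then assumed to vary like the other. Replicate numbers were shared by the groups. For spliced reads, the deviations of libraries numbered 1 from their group means correlated by 0.00693 over 20019 introns. That shows no strong shared replicate effect in spliced reads, but it cannot exclude that the libraries were paired. With the replicate block the calls were 11 higher and 9 lower within the gene and 7 higher downstream against upstream, and the other counts stayed within 1.5 times. The class log2 ratio of intronic reads per 100 spliced reads, 0.10 over all giant introns, was 0.22 without those holding an annotated exon and -0.08 without the 10 introns with the most intronic reads. Split by a whole processed pseudogene inside, an alternative added after seeing the data, it was 0.20 with and -0.13 without. The 88 values of named introns gave 709 values under alternatives, of which 558 kept their direction and side of the threshold, 134 lost the call, 96 of them with a library left out, and 5 gained it. In the simulations, over introns of all lengths, changes of 2-fold were recovered in 4.48% of changed introns for intronic reads and in 0% for the ratio. Fewer introns were changed there than were called in these data, so the rates need not hold for the real tests. A giant intron without a call may still have changed, and the part of low counts in this was not tested.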
